A study of Mus musculus with 2 samples.

Results

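Very long annotated coding transcripts of mouse gastrocnemius muscle were counted as complete molecules where the deposited tables class a read chain as Known, the annotation calls it protein-coding, and the model has 2 or more exons and 6000 or more bases. A total of 977 such transcripts from 886 genes had a read in at least 1 library, out of 14714 annotated coding multi-exon transcripts read. They were chosen by annotated length, class and exon number, so their length is not a result. The 5 transcripts just inside the limit were Nemp1-201 and Tmem106b-201 (6002 bases each), Usp45-202 (6003), Xpo1-202 (6004) and Xpot-203 (6005). The 5 just outside were Nucks1-201 (5998), Gnb4-205 and Jarid2-208 (5997 each), and Crim1-201 and Pcf11-201 (5995 each), with 1 to 7 reads each in replicate 1 and 0 to 14 in replicate 2, against 1 to 15 and 0 to 23 just inside.

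The series holds 2 long-read RNA libraries from the gastrocnemius, the large calf muscle, in 1 group with no contrast of conditions. The animals were females of strain B6CASTF1/J, the F1 hybrid of C57BL/6J and CAST, at 25 days of age, with no treatment or engineered allele named in the labels. Each library used 2 µg of total RNA. The animals carry different numbers but 1 donor record, so differences between replicate 1 and replicate 2 hold animal, dissection and library together.

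Long-read sequencing reads a cDNA copy of an RNA in 1 piece, and a read is called complete when it carries every splice junction of a model in order. A read that carries a contiguous part of an annotated chain is classed as an incomplete splice match (ISM), NIC and NNC chains combine known or new splice sites in unannotated ways, and Genomic reads overlap a gene without such a chain. Muscle depends on unusually large proteins: myosin heavy chains pull on actin, titin and nebulin set filament lengths, and voltage-gated and calcium-release channels couple nerve signals to contraction. Other long transcripts are long because of their 3′ untranslated region, which can bind regulatory proteins and microRNAs and does not code for protein.

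Replicate 1 held 1069771 reads and replicate 2 held 1557594 without spike-ins, which took 30993 and 31067 further reads. Levels are given as CPM, read counts scaled to the total of each library. Taken as 3 reads, a count of 0 allows a level of up to 2.80 CPM in replicate 1 and 1.93 CPM in replicate 2. All intervals in parentheses are 95% intervals by the exact Clopper-Pearson method and cover counting error only. ISM reads, which include some with a single exon, were 8.71% of ISM, Known, NIC and NNC reads in replicate 1 and 13% in replicate 2. All 13 skeletal muscle markers were read in both libraries and summed to 355253 CPM in replicate 1 and 257352 in replicate 2. In bulk tissue, fewer cells of a type and less RNA per cell cannot be told apart. Summed markers were higher in replicate 1 for fibroblasts and tendon (4261 against 2738 CPM, although 4 of 6 markers were lower there), blood (990 against 345 CPM), adipocytes (327 against 86.7 CPM), nerve (118 against 73.2 CPM), smooth muscle (92.5 against 38.5 CPM) and endothelium (57.0 against 21.8 CPM), and the part of tissue makeup in the results was not tested.

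A Known row carries the annotated ends, which was true of all 868 rows of replicate 1 and 679 of replicate 2, so the stretch a complete read must have crossed runs from the first splice donor to the last splice acceptor. This is called the internal spliced length below. The following pairs of 30-base windows, taken from GENCODE M21 transcripts (mm10), show the first and last coding junctions between which a read must run. Capitals mark the first bases of the downstream exon.
Cmya5-201, exons 1 and 2, chr13:93098429-93144358, minus strand: ggagcccgacgccagGTTATCAGATGAGGA
Cmya5-201, exons 12 and 13, chr13:93041560-93045867, minus strand: ctctgagccacagagATACACATTTTTCTA
Cacna1s-204, exons 1 and 2, chr1:136053052-136054579, plus strand: catcgtggaatggaaACCCTTCGAGACCAT
Cacna1s-204, exons 43 and 44, chr1:136118813-136118957, plus strand: atgctgatccaggagGCTCTGGTTCGAGGA
Glo1-206, exons 1 and 2, chr17:30604102-30612468, minus strand: gaccctagcaccaagGATTTTCTACTGCAG
Glo1-206, exons 5 and 6, chr17:30594226-30596374, minus strand: agaagcctgatgacgGGAAAATGAAAGGAC
The windows lie 10635 spliced bases apart in Cmya5-201, 5227 in Cacna1s-204 and 382 in Glo1-206, although Glo1-206 is annotated with 9865 bases.

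The transcripts differed widely in how much of their length the junctions certify. Their median annotated length was 7130 bases with 16 exons, and the longest was D10Wsu102e-201, at 123179 bases. The median share of the length in the last exon was 62.2%, the median coding share 38.2%, and the median share between first donor and last acceptor 31.6%. The last exon held over 50% of the length in 603 transcripts, and these took 44.4% of the group's reads in replicate 1 and 69.1% in replicate 2. D10Wsu102e-201 has 122802 of its bases in the last exon and an internal spliced length of 224, with 2 reads in replicate 1 and 0 in replicate 2. D1Ertd622e-201, at 40378 bases the longest read in both libraries, has 40044 bases in the last exon and had 4 reads in replicate 1 and 6 in replicate 2. The 15 longest transcripts read in both libraries ran from 12190 to 40378 bases with internal stretches of 0 to 2790. Among them Pnpla8-201, a phospholipase (13507 bases, internal 2145), had 136 reads in replicate 1 and 99 in replicate 2, and Serbp1-201, an mRNA-binding protein (15474 bases, internal 854), 28 and 33. How far a read ran into such a last exon was not measured, since Known rows carry no read ends.

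**Figure D1:**
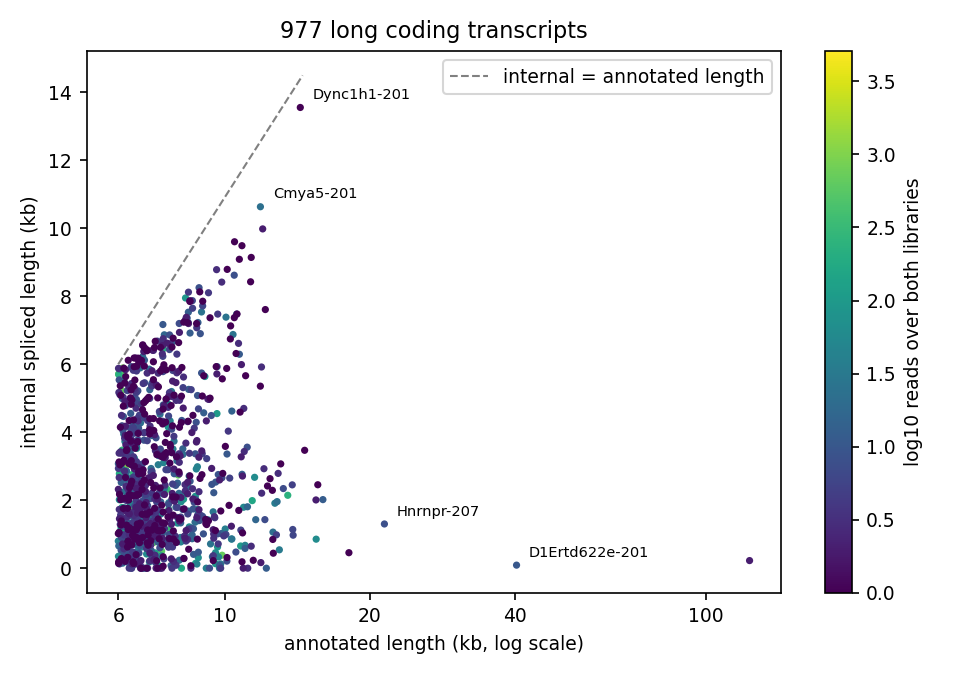
Annotated length (x axis, kb, log scale) against internal spliced length (y axis, kb) of the 977 transcripts, each point 1 transcript coloured by the log10 of its reads over both libraries; the dashed line marks equal values. Dync1h1-201 and Cmya5-201 lie above 10 kb of internal spliced length, while D1Ertd622e-201, with 40378 annotated bases, lies near 0.

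Complete molecules with a long internal stretch were few and mostly in replicate 1. An internal spliced length of 6000 bases or more was seen in 93 transcripts from 76 genes, with 611 reads in replicate 1 and 131 in replicate 2. The 2 above 10000 bases were Dync1h1-201, the heavy chain of cytoplasmic dynein, the motor that moves cargo towards microtubule minus ends, and Cmya5-201, which encodes myospryn, a muscle protein of the costamere and Z-disc. Dync1h1-201 has 77 exons and an internal spliced length of 13556 bases, and had 1 read in replicate 1 and 0 in replicate 2. Cmya5-201 (internal 10635) had 22 reads in replicate 1 and 1 in replicate 2, a CPM ratio of 32.0 (5.18 to 1322).

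Next by internal spliced length came Xirp2-202 (9983 bases, 2 reads in replicate 1 and 0 in replicate 2), a Xin repeat protein that binds actin, Cplane1-201 (9605, 0 and 1), and the Golgi tether Golgb1-202 (9489, 1 and 0). Fryl-202 (9144), Rev3l-201 (9089), the catalytic subunit of DNA polymerase zeta, and Helz2-202 (8792) had 1 read each in replicate 1 and 0 in replicate 2. The nuclear pore gene Ranbp2-201 (8784) had 2 reads in replicate 1 and 1 in replicate 2, and Crybg3-205 (8621) had 7 and 1. Libraries cannot be compared on most of these at 1 or 2 reads.

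Among the better read of the 93, Myo18b-201, an unconventional myosin needed for sarcomere assembly (44 exons, internal 7951), had 73 reads in replicate 1 and 19 in replicate 2. Flnc-202, the muscle filamin that crosslinks actin at the Z-disc (internal 7539), had 24 and 2, a ratio of 17.5 (4.34 to 153). For the whole Flnc gene the ratio was 3.13 (2.58 to 3.81). Fasn-201, fatty acid synthase (internal 7386), had 26 and 0, at least 12.6-fold higher in replicate 1 with replicate 2 set at 3 reads. Coding length gave a similar picture: 117 transcripts had 6000 or more coding bases, with 673 reads in replicate 1 and 159 in replicate 2.

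The most read transcripts were myosin heavy chains, a calcium channel gene, and short coding sequences with long last exons. Myh1-203, the fast IIX myosin (ENSMUSG00000056328.14, chr11:67200052-67224575, plus strand), had 4275 reads in replicate 1 and 846 in replicate 2, or 3996 CPM in replicate 1 and 543 in replicate 2, and Myh1-202 had 399 CPM in replicate 1 and 62.9 in replicate 2. Myh4-201, a transcript of the fast IIB myosin Myh4, had 615 CPM in replicate 1 and 134 in replicate 2. Myh2-203, the IIA myosin, had 320 CPM in replicate 1 and 91.8 in replicate 2. Myh7-201, the slow myosin, ran the other way at 277 CPM in replicate 1 and 378 in replicate 2. Replicate 1 was thus higher in the 4 fast myosin transcripts and lower in the slow one, by 7.36-fold (6.83 to 7.93) for Myh1-203, 4.58-fold (3.92 to 5.38) for Myh4-201 and 3.48-fold (2.86 to 4.26) for Myh2-203, against 0.733-fold (0.635 to 0.844) for Myh7-201. These directions held under all 4 other scalings tried. By whole-gene reads the ratio was 5.11 for Myh1, 2.05 for Myh4, 1.68 for Myh2 and 0.513 for Myh7. Myh4-201 held 658 of the 4826 Known reads of Myh4 in replicate 1 and 209 of 1317 in replicate 2. Whole-gene reads put Myh4 above Myh1, at 16360 against 7673 CPM in replicate 1 and 7963 against 1502 in replicate 2.

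The 3 fast myosins are paralogs that sit beside each other on chromosome 11, and the last coding junction shows how close they are.
Myh1-203, exons 39 and 40, chr11:67222466-67224317, plus strand: caagctgaggaagcgGAGGAACAATCCAAT
Myh2-203, exons 39 and 40, chr11:67195101-67197236, plus strand: caagctgaggaggctGAGGAACAATCCAAC
Myh4-201, exons 38 and 39, chr11:67259385-67260188, plus strand: caggctgaggaggctGAGGAACAATCCAAT
Of these 30 bases, Myh1-203 shares 27 with Myh2-203 and 27 with Myh4-201, and Myh2-203 shares 28 with Myh4-201. The longest identical run in the coding sequence is 268 bases for Myh1-203 with Myh2-203, 161 for Myh1-203 with Myh4-201 and 59 for Myh1-203 with Myh7-201. No source used here says how reads that match several of them were assigned, so counts of short incomplete reads in these genes are uncertain. Myh1, Myh2, Myh4 and Myh7 together took 6138 of the 18183 reads of the group in replicate 1 (33.8%) and 1959 of 11066 in replicate 2 (17.7%).

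Cacna1s-204, the voltage sensor that starts calcium release (internal 5227), had 501 CPM in replicate 1 and 89.2 in replicate 2. It was higher in replicate 1, by 5.61-fold (4.65 to 6.82), while whole-gene reads of Cacna1s were 2.11-fold (1.90 to 2.36) higher. Glo1-206, which encodes glyoxalase 1 and has 9291 of 9865 bases in its last exon, had 265 CPM in replicate 1 and 268 in replicate 2, a ratio of 0.989 (0.848 to 1.15) that turned above 1 when Atp2a1 was left out of the totals. Timm17a-201, a mitochondrial import channel subunit (internal 404), was lower in replicate 1 at 136 CPM, against 251 CPM in replicate 2. Eif4g2-213, a translation factor (internal 2741), had 349 CPM in replicate 1 and 173 in replicate 2, and Slc25a12-206, the mitochondrial aspartate-glutamate carrier (internal 1823), 270 CPM in replicate 1 and 190 in replicate 2. Ppp2ca-201, G3bp1-201, Zfand5-205 and Rab18-205, with internal lengths of 377 to 1206, had 211 to 263 CPM in replicate 1 and 152 to 202 CPM in replicate 2. With Slc25a12-206, the ratios of these 4 were above 1 on total reads and fell below 1 on spike-in totals.

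**Figure D2:**
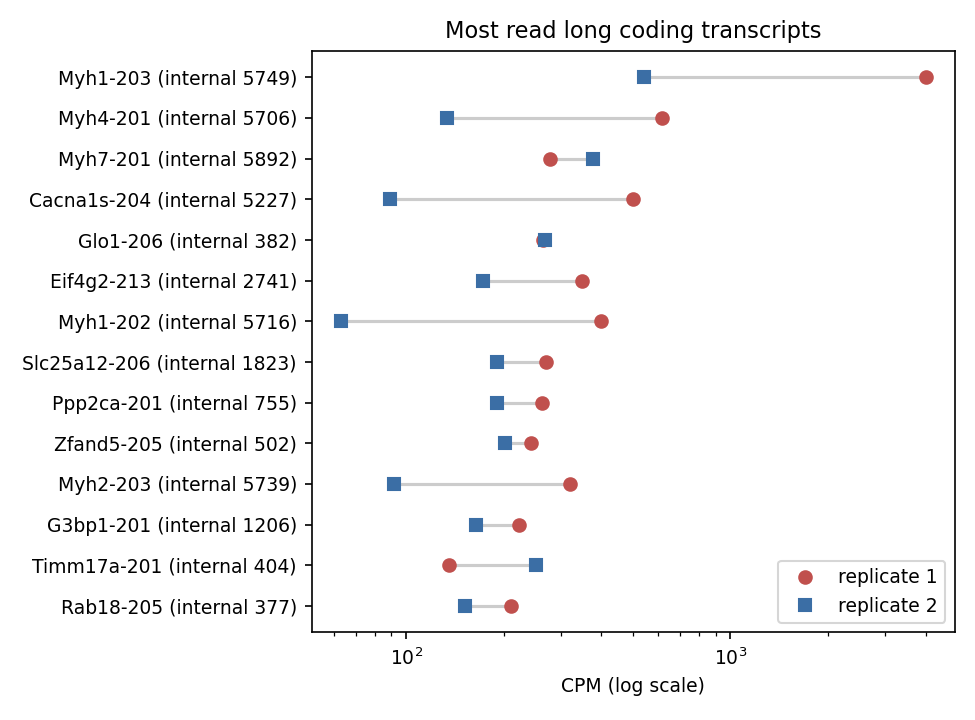
CPM (x axis, log scale) of 14 of the transcripts with the highest mean CPM in replicate 1 (circles) and replicate 2 (squares), 1 library each; the label gives the internal spliced length in bases. Myh1-203, at 3996 CPM in replicate 1 and 543 in replicate 2, and Cacna1s-204, at 501 CPM in replicate 1 and 89.2 in replicate 2, lie far apart between libraries, while Glo1-206, at 265 CPM in replicate 1 and 268 in replicate 2, does not.

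The group took 1.70% of reads in replicate 1 (1.68 to 1.72) and 0.710% in replicate 2 (0.697 to 0.724), or 1.21% ± 0.700 (SD, n = 2). The log2 ratio of replicate 1 over replicate 2 was 1.26 (1.22 to 1.29), a 2.39-fold difference, against -0.09 (-0.09 to -0.08) for shorter coding transcripts. The shorter ones were not alike: the ratio was -0.82 below 1000 annotated bases and 1.44 at 5000 to 6000, above that of the group. Over coding transcripts of any annotated length, it was -0.31 below 1000 internal bases and 2.33 at 5000 to 6000. Without the 4 myosin genes the group's ratio was 0.95 (0.91 to 0.98). With them it ranged from 0.72 on spike-in totals to 1.42 without Atp2a1 in the totals. A total of 570 transcripts were read in both libraries, 298 in replicate 1 alone and 109 in replicate 2 alone, and 265 had a single read over both.

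The difference between the libraries grew with internal spliced length. Below 1000 bases, 220 transcripts had 3498 reads in replicate 1 and 4111 in replicate 2, a log2 ratio of 0.31 (0.24 to 0.37) that turned to -0.23 on spike-in totals. It was 0.68 from 1000 to 2000 bases, 1.24 from 2000 to 3000, 1.60 from 3000 to 4000 and 2.18 from 4000 to 5000. From 5000 to 6000 bases it was 2.23, and 2.51 without the 4 myosin genes. At 6000 bases and above it was 2.76 (2.49 to 3.05), or 571 CPM in replicate 1 and 84.1 CPM in replicate 2. Of all 93 transcripts of this last class, 79 had the higher CPM in replicate 1 and 14 in replicate 2. Only 34 of the 93 were read in both libraries, and for the others the direction was fixed by the library that held their reads. Most rested on few reads: 12 had 10 or more reads in replicate 1 and 2 in replicate 2. Other scalings moved every log2 ratio by the same amount (-0.17 with TMM, -0.22 with DESeq2 size factors, -0.54 with spike-ins and 0.16 without Atp2a1), so the order of the classes was the same under each.

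**Figure D3:**
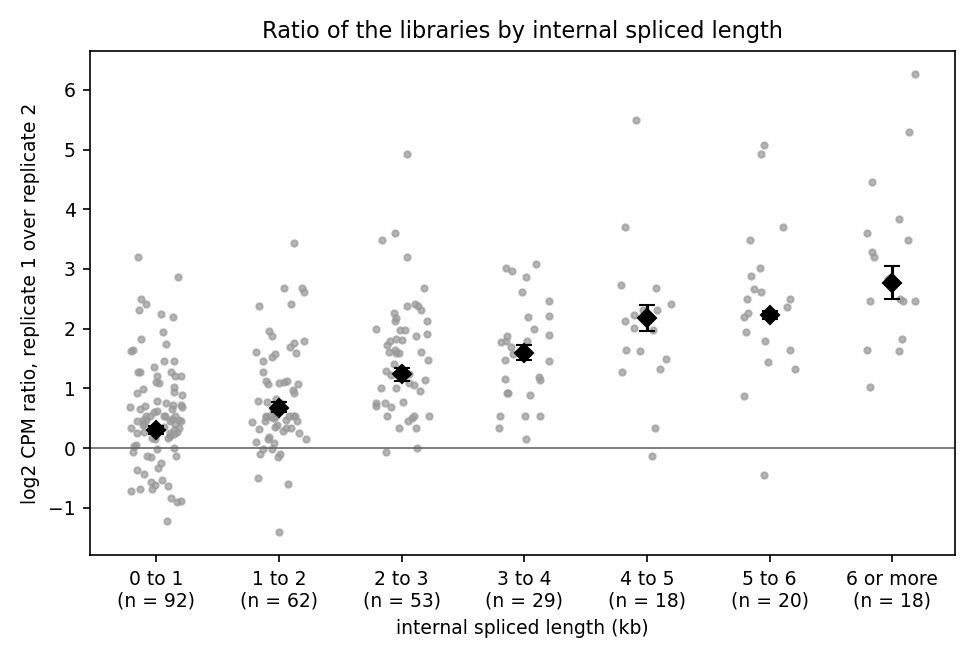
Log2 CPM ratio of replicate 1 over replicate 2 (y axis) by internal spliced length (x axis, kb). Grey points are transcripts with 10 or more reads over both libraries (n below each class), black diamonds are the ratios of summed reads of all transcripts of the class with exact 95% intervals; the diamonds run from 0.31 in the shortest class to 2.76 in the longest.

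Detection of annotated transcripts was lower at a long internal stretch than at a long total length. Of 3657 annotated coding transcripts of 6000 bases or more, 23.7% (22.4 to 25.1) had a read in replicate 1 and 18.6% (17.3 to 19.9) in replicate 2, against 22.8% and 22.8% of 52401 shorter ones. The shorter ones include 17334 under 1000 bases, of which 7.43% were read in replicate 1 and 8.75% in replicate 2. At 5000 to 6000 bases the shares were 30.9% in replicate 1 and 26.0% in replicate 2. At 10000 or more annotated bases they were 12.5% in replicate 1 and 10.6% in replicate 2. Of 757 with an internal spliced length of 6000 or more, 10.6% were read in replicate 1 and 6.21% in replicate 2, against 23.0% and 22.7% of the 55301 others. Above 10000 internal bases, 2 of 175 were read in replicate 1 and 1 in replicate 2. Transcripts of 1 gene share reads and sequence, so these shares describe the annotation rather than independent transcripts.

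At the level of genes, 2311 genes have such an annotated transcript, 886 were read in one, 831 had reads but no complete long transcript, and 594 had no read. Among genes with 20 or more reads over both libraries, 110 of 123 (89.4%, 82.6 to 94.3) yielded a complete long transcript where the shortest internal stretch on offer was under 1000 bases. The share was 68.0% (53.3 to 80.5) of 50 genes at 6000 to 8000 bases and 16.7% (2.09 to 48.4) of 12 at 10000 or more.

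More of the 886 genes had higher than lower whole-gene reads in replicate 1, mainly those with 2000 or more internal bases. A gene entered the 886 by a complete long read in either library, with 797 genes read so in replicate 1 and 641 in replicate 2. Those reads count in the whole gene, so the comparison with all genes is not free of how the 886 were chosen. Of 636 with 10 or more reads over both, 160 (25.2%) were higher and 17 (2.67%) lower in replicate 1 at an adjusted p of 0.05 (Fisher's exact test, two-sided, Benjamini-Hochberg over 8892 genes), beside 14.9% and 11.1% of all genes tested. The median log2 ratio was 0.63, against 0.18 over all genes. Where the most read long transcript had under 1000 internal bases, 12.0% of 142 genes were higher and 4.23% lower. At 1000 to 2000 bases the shares were 18.3% and 2.38% of 126 genes. At 2000 to 5000 bases they were 31.8% and 1.67% of 239, and at 5000 or more 34.1% and 3.10% of 129. With TMM scaling 120 of the 636 were higher and 23 lower, and with DESeq2 size factors 114 and 26. Over all genes the split was 1328 higher and 983 lower on total reads, 870 and 1255 with TMM, and 786 and 1349 with DESeq2 size factors. The test compares 2 libraries on counting error: edgeR's exact test at an assumed dispersion of 0.04 called 25 higher and 2 lower, and at 0.1 only Fasn higher and Tsc1 lower.

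Among the 886 genes, the 5 past Fisher's test with the highest log2 ratio after adding 0.5 reads were Golgb1 (10 reads in replicate 1 and 0 in replicate 2, at least 4.85-fold), Pxdn (18 and 1), Fasn (57 and 5), Myh11 (16 and 2), the smooth muscle myosin, and Dnajc13 (14 and 2). The place of Golgb1 rests on the added reads, since its bound is below the 5.11-fold of Myh1. Acta2, the smooth muscle actin, was also higher in replicate 1, at 77.6 CPM against 37.2 CPM, and its part in the Myh11 result was not tested. The 5 lowest of the 886 were Cntnap2 (1 and 20), Tsc1 (37 and 453), a brake on mTOR signalling, Ddx6 (12 and 109), an RNA helicase of mRNA decay, Cdc73 (3 and 19) and Atrn (5 and 26). The complete long transcript Tsc1-202 had 1 read in replicate 1 and 0 in replicate 2, so nearly all reads behind the Tsc1 difference were of other kinds.

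Across 9 gene lists, 286 genes have an annotated transcript of this length and 120 were read in one. Counts of list genes with more or fewer reads in replicate 1 are by Fisher's exact test and stand beside 14.9% higher and 11.1% lower among all genes tested, and 25.2% and 2.67% among the 886. Most were lost when edgeR's exact test was run with an assumed dispersion of 0.04, which kept 9 higher and 1 lower over all 9 lists. Of 45 sarcomere and cytoskeletal linker genes that could have been seen, 22 were. Among these, 13 had more reads in replicate 1 and 2 fewer (Myh7 and Xirp2), with a median log2 ratio of 0.99 and examples in Flnc (333 reads in replicate 1 and 155 in replicate 2) and Myo18b. With edgeR's test 4 of the 13 passed (Flnc, Myh1, Myh11 and Myo18b) and neither of the 2. The ISM share was above that of the library in 15 of 17 tested, beside 11.3% of all genes tested and 40.2% of the 886 tested. The long transcripts of this list have a median internal spliced length of 5892. Among the 886, 34 of 36 genes tested with 5000 or more internal bases were above the library, so the share is not particular to this list.

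Excitation and calcium genes gave 6 of 18, and 2 of 5 tested were higher (Cacna1s among them), none of them by edgeR's test, with a median of 0.92. Scn4a-201, the muscle sodium channel (internal 3997), had 1 read in replicate 1 and 3 in replicate 2, and Agrn-206, agrin, the nerve-derived organiser of the synapse, 3 and 0. Extracellular matrix genes gave 14 of 30, with 6 of 13 higher and none lower (median 1.12), of which Col4a1 and Lamc1 passed edgeR's test. Col4a1-201 and Col4a2-201, the basement membrane collagen chains, had 151 and 57 reads in replicate 1, against 34 and 12 in replicate 2. The ratios were 6.47 (4.43 to 9.68) for Col4a1-201 and 6.92 (3.67 to 14.2) for Col4a2-201. For the whole Col4a1 gene the ratio was 3.85 (3.09 to 4.83). Over the whole Col4a2 gene the libraries had 206 reads in replicate 1 and 289 in replicate 2 and did not pass the test (adjusted p = 0.844, Fisher's exact test), so complete and total reads gave different ratios. Lamc1-201, a laminin chain, had 60 reads in replicate 1 and 16 in replicate 2, and Fn1-203, fibronectin, 8 and 3.

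Ubiquitin and proteolysis genes gave 13 of 27, with 5 higher (Trip12, Usp13 and Wwp1 among them) and 1 lower (Mib1) of 13 and a median of 0.82, and none of these 4 passed edgeR's test. Usp13-201, a deubiquitinase (internal 2321), had 194 reads in replicate 1 and 135 in replicate 2, Wwp1-202, an E3 ligase, 150 and 130, Fbxo32-201, the atrophy-linked ligase atrogin-1 (internal 862), 16 and 18, and Usp24-201 (internal 7476) 10 and 7. The last 2 had intervals of the ratio that held 1. Metabolic enzyme and transporter genes gave 8 of 11, with 5 of 7 higher (Acacb, Fasn, Phka1 and Slc25a12 among them) and a median of 0.69, of which Fasn alone passed edgeR's test. Phka1-202, the muscle phosphorylase kinase subunit, had 162 reads in replicate 1 and 107 in replicate 2.

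Membrane traffic and motor genes gave 12 of 35, with 6 of 11 higher and a median of 1.33, of which Kif1b alone passed edgeR's test. Kif5b-201, the conventional kinesin heavy chain, had 128 reads in replicate 1 and 56 in replicate 2 and was 3.33-fold (2.41 to 4.64) higher in replicate 1. For the whole Kif5b gene the ratio was 2.65 (2.06 to 3.42). Chromatin and transcription genes gave 15 of 59, with 3 of 11 higher (Foxo1, Mef2c and Smarca4, none by edgeR's test), none lower and a median of 0.90. That share is near that of the 886 genes. Their complete transcripts were thinly read: Foxo1-201, a transcription factor of the fasting response, had 18 reads in replicate 1 and 2 in replicate 2, Mef2c-201, a myogenic factor, 15 and 3, Nr3c1-203, the glucocorticoid receptor, 15 and 6, and the coactivator Ncoa1-201 8 and 13.

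Signalling genes gave 17 of 44, with 3 higher (Irs1, Prkaa2 and Tsc2) and 1 lower (Tsc1) of 13 and a median of 0.74. By edgeR's test Tsc1 alone passed, and the share higher is near that of the 886 genes. Prkaa2-201, an AMPK catalytic subunit, had 44 reads in replicate 1 and 23 in replicate 2. Ppp1r3a-201, the glycogen-targeting subunit of protein phosphatase 1 (internal 187), had 37 and 29, and Irs1-201, an insulin receptor substrate with 2 exons and so no internal stretch, 25 and 14. RNA processing and translation genes gave 13 of 18, with 3 of 13 higher (Cnot1, Larp1 and Qk, none by edgeR's test), none lower and a median of 0.51 that turned to -0.03 on spike-in totals. Snrnp200-201, the helicase of the U5 snRNP (internal 6222), had 17 reads in replicate 1 and 3 in replicate 2, a ratio of 8.25 (2.39 to 43.9), while its whole gene had 34 and 33.

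Incomplete reads took a larger share in the 886 genes than in shorter ones, and the size of the share depended on 4 myosin genes. ISM reads made up 17199 of 53006 ISM, Known, NIC and NNC reads in replicate 1 (32.4%, 32.0 to 32.8) and 18241 of 37630 in replicate 2 (48.5%, 48.0 to 49.0), or 40.5% ± 11.3 (SD, n = 2). In the 9510 genes read in shorter coding transcripts alone, the shares were 6.99% in replicate 1 and 11.5% in replicate 2. Myh1, Myh2, Myh4 and Myh7, whose short incomplete reads are of uncertain assignment, supplied 60.3% of the ISM reads of the 886 genes in replicate 1 and 60.7% in replicate 2, and without them the pooled share was 26.4% and 33.5%. The median per gene was 13.7% in replicate 1 and 19.9% in replicate 2 over 184 genes, against 4.43% and 5.88% over 3460 shorter genes. Of 184 genes with 20 or more such reads in each library, 74 (40.2%) had a higher ISM share than the rest of both libraries and 10 (5.43%) a lower one (Fisher's exact test, two-sided, adjusted over 3872 genes), beside 11.3% and 16.4% of all genes tested. With a minimum of 10 reads 112 were higher, and with 50 reads 37. A gene needed at least 1 complete long read to enter this count, so the genes whose long transcript was never read whole stand outside it.

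The ISM share was higher in genes with a longer internal stretch. It is given beside that of shorter genes with a like stretch, and no difference between these was tested. Where the most read long transcript had an internal spliced length under 1000 bases, the median share per gene was 2.80% in replicate 1 and 3.33% in replicate 2, against 2.78% and 3.41% in shorter genes. At 1000 to 2000 bases it was 5.46% and 8.76%, against 6.67% and 9.72% in shorter genes. At 2000 to 3000 it was 13.5% and 19.2%, against 11% and 16.3%, and at 3000 to 4000 20.7% and 35.3%, against 20.0% and 34.8%. At 4000 to 5000 it was 35.3% and 49.5% over 16 genes, against 22.8% and 41.0% over 13 shorter genes. At 5000 or more it was 47.6% and 75.3% over 36 genes, a class that holds only 2 shorter genes. In that class 34 of 36 genes were above the library (94.4%), in contrast to 3 of 47 below 1000 bases (6.38%), where 9 were lower. Pooled over reads, the shares lay further apart: at 3000 to 4000 bases 26.0% in replicate 1 and 45.5% in replicate 2, against 18.2% and 29.8% in shorter genes, and below 1000 bases 7.50% and 9.39%, against 5.17% and 8.53%. The genes were not matched on expression.

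**Figure D4:**
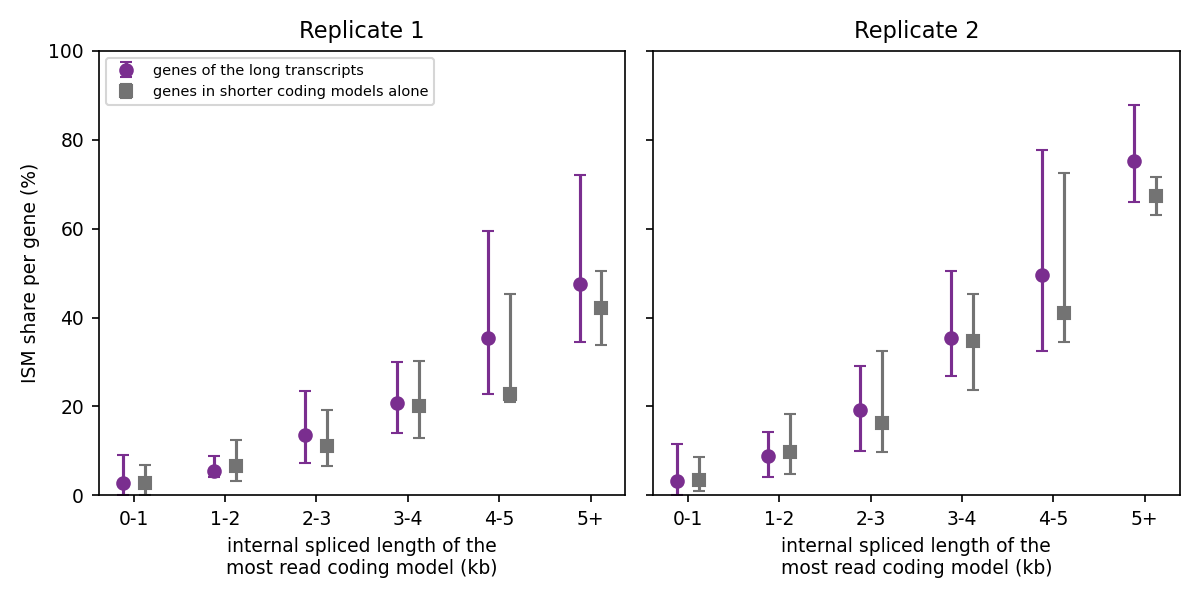
ISM share per gene (y axis, %) by internal spliced length of the most read coding transcript (x axis, kb) in replicate 1 (left) and replicate 2 (right). Markers are medians and bars quartiles over genes with 20 or more ISM, Known, NIC and NNC reads in each library, circles for the genes of the long transcripts and squares for genes read in shorter ones alone; medians are higher at 4 to 5 kb than below 1 kb in both kinds of gene, with 20.7% beside 20.0% at 3 to 4 kb and 35.3% beside 22.8% at 4 to 5 kb in replicate 1.

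The 5 genes with the highest mean share among the 184 had differing roles. Xirp2 had 97.6% ISM reads in replicate 1 and 99.5% in replicate 2, Flnc 89.4% and 95.5%, Cmya5 84.3% and 97.7%, the chromatin regulator Ankrd11 91.3% and 90.6%, and the proteasome activator Psme4 78.3% and 100%. Their long transcripts have 9 (Xirp2-202) to 47 exons (Flnc-202 and Psme4-201). The lowest share was 0% in both libraries, and the 5 genes named for it were 1700025G04Rik, Ahnak, Bcap29, Fam210a and Gtpbp4. Ties were taken in order of gene name, so other genes at 0% may have been left out. In the 5 named, the most read long transcript has an internal stretch of 456 to 1704 bases. Ahnak-202 is annotated at 18100 bases, 17498 of them in the last exon, and 1 read of replicate 2 was assigned to it.

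Between libraries, 31 of the 184 genes (16.8%) had a lower ISM share in replicate 1 and 2 (Ehbp1l1 and Hif1an) a higher one, beside 7.67% and 0.878% of all 3872 genes (Fisher's exact test). In the class of 5000 or more internal bases 16 of 36 were lower in replicate 1. Cacna1s had 30.2% in replicate 1 and 72.2% in replicate 2, and Myh4 40.8% and 74.1%. Most ISM reads of the 886 genes lacked the 5′ part of the chain: the Suffix subtype, which keeps the 3′ junctions, held 91.0% of their ISM reads in replicate 1 and 84.6% in replicate 2, against 79.2% and 64.4% in shorter genes, while the Prefix subtype held 3.38% and 2.19%, against 6.47% and 13.8%.

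Incomplete reads carried more junctions from the 3′ end in replicate 1. Counted here were ISM reads with 2 or more exons, and not the rest. Such a read had to carry an unbroken run of junctions up to the last one of the gene's most read long transcript. In 28 transcripts with 20 or more such reads in each library, the median over transcripts of the junctions carried was 51.2% of the chain in replicate 1 and 33.3% in replicate 2; 19 transcripts had the higher median in replicate 1, none in replicate 2, and 9 were equal. In Myh4-201 the median read carried 21 of 38 junctions in replicate 1 and 5 in replicate 2, over 6772 reads in replicate 1 and 8694 in replicate 2. In replicate 1 and replicate 2 it carried 25 and 15 of 39 in Myh1-203, 27 and 14 of 43 in Cacna1s-204, 20 and 8 of 46 in Flnc-202, and 23 and 14 of 43 in Myo18b-201. Junctions were counted here and not bases, and the 2 can come apart. In Cmya5-201 the median read carried 11 of 12 junctions in each library, while exon 2 alone holds 87.5% of the internal bases.

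**Figure D5:**
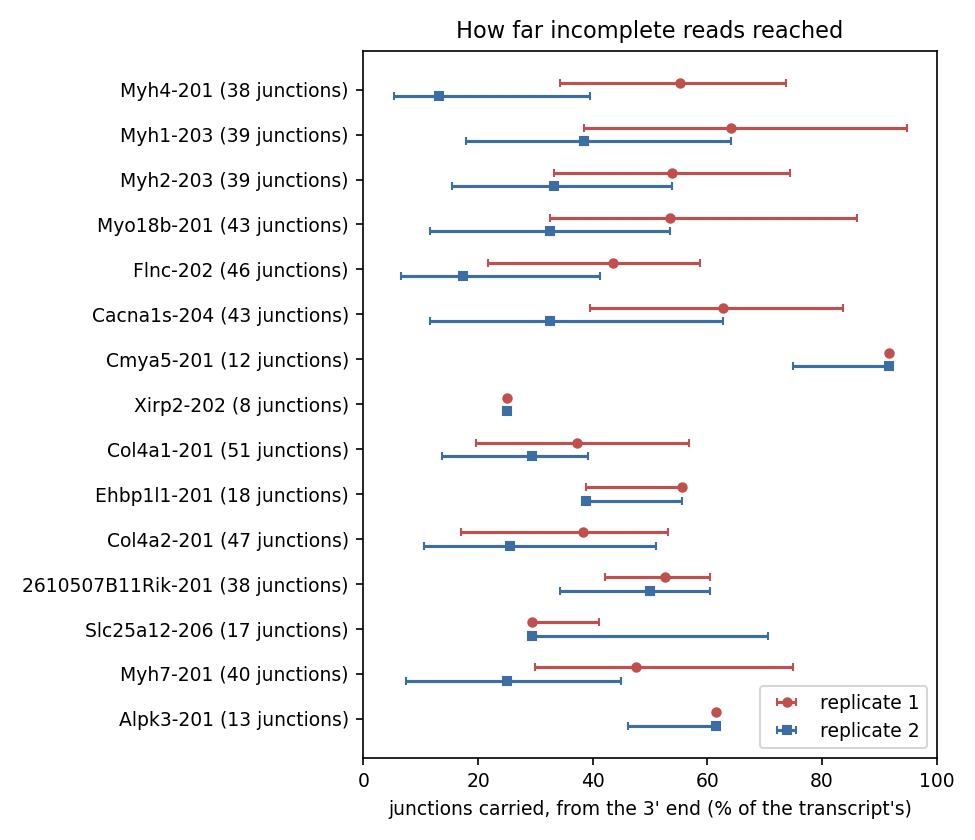
Junctions carried by incomplete reads whose chain ends at the transcript's last junction, counted from the 3′ end, as a percentage of its junctions (x axis). Shown are 15 of the transcripts with the most such reads in replicate 1. Circles (replicate 1) and squares (replicate 2) are medians over reads and bars are quartiles; Myh4-201 stands at 21 of 38 junctions in replicate 1 and 5 in replicate 2, while Xirp2-202 stands at 2 of 8 in both.

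Where these same incomplete reads began was then set beside the longest internal exon of each of the 28 transcripts. Both the feature and a limit of 2000 bases were chosen after the reads were seen. In the 8 transcripts whose longest internal exon has 2000 or more bases, 10.9% to 98.6% of incomplete reads in replicate 1 and 12.1% to 94.8% in replicate 2 carried exactly the junctions 3′ of it. In the other 20 the shares were 0% to 20.4% in replicate 1 and 0% to 11.6% in replicate 2. Xirp2-202 has a 9265-base exon 7, with 147 reads counted in this way in replicate 1 and 77 in replicate 2. Of these, 98.6% (95.2 to 99.8) in replicate 1 and 94.8% (87.2 to 98.6) in replicate 2 carried exactly the 2 junctions 3′ of exon 7. Their chain thus began in that exon. For Cmya5-201, whose exon 2 has 9310 bases, the shares were 82.0% in replicate 1 and 58.5% in replicate 2. In replicate 1 and replicate 2 they were 98.0% and 94.2% for Naca-202, a nascent polypeptide complex subunit with a 5916-base exon 3, and 86.1% and 78.9% for the Golgi gene Golga4-201 (exon 15, 4211 bases). In the same libraries Alpk3-201 (exon 6, 2038 bases) had 66.7% and 47.7%, Mtus1-202 (exon 2, 2227 bases) 65.0% and 75.0%, and Ehbp1l1-201 (exon 9, 2746 bases) 47.7% and 27.6%. Zfp106-201, with a 2169-base exon 5, had 10.9% in replicate 1 and 12.1% in replicate 2. In Myh1-203, whose longest internal exon has 390 bases, the same measure was 6.60% in replicate 1 and 7.88% in replicate 2. A shared median junction was also seen without a large exon: Slc25a12-206, with a longest internal exon of 159 bases, had a median of 5 of 17 junctions in each library, and Tln1-201 (295 bases) a median of 18 of 56.

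The giant genes of muscle had many reads and no complete annotated long transcript. Ryr1, the calcium release channel, whose coding transcripts have 14955 or more internal bases, had 736 reads in replicate 1 and 769 in replicate 2, with 0 in a Known transcript and 664 and 736 ISM. Its chains carried up to 94 exons and 13851 internal bases in replicate 1 and up to 87 exons and 12987 bases in replicate 2. Ttn, titin, annotated up to 106824 bases, had 439 reads in replicate 1 and 377 in replicate 2, and its longest chain by internal length spanned 14268 bases in replicate 1 and 13617 in replicate 2. Neb, nebulin, had 199 reads in replicate 1, of which 7 were in Known transcripts outside the rule, and chains of up to 101 exons and 13578 internal bases. In replicate 2 it had 205 reads, with 2 in such transcripts and chains of up to 86 exons and 11112 bases. The cytolinker Plec had 335 reads in replicate 1 and 236 in replicate 2, with internal stretches of up to 7311 and 5448 bases.

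The Ttn chain of 14268 internal bases was 1 read of replicate 1 with 74 exons, an unannotated combination of known sites, and was longer than the 13556 bases of the longest complete annotated transcript, Dync1h1-201. In all, 158 of the 286 list genes had reads and no complete long transcript, and in 83 of them every annotated transcript of this length needs 6000 or more internal bases.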

How the data were processed

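Gene symbols, classes, exon numbers and model lengths are as deposited, on mm10 with GENCODE M21, per the notes deposited with the files. The authors' deposited tables hold whole-number read counts per transcript model with no normalization. TALON is the source named in the deposited models. No source used here names the sequencing platform, the aligner, versions or read filters. Counts were summed per gene and divided by all reads without spike-ins for CPM. Log2 ratios add 0.5 reads to each count of a single model or gene, and ratios of summed reads add none. Internal spliced length came from the deposited exon coordinates and coding length from GENCODE M21. The ISM share is ISM reads over ISM, Known, NIC and NNC reads. Among unannotated models of known genes, 81.5% in replicate 1 and 78.2% in replicate 2 carried an exactly annotated 3′ end, so their lengths were not taken as read lengths. GENCODE transcripts gave the junction windows.

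With 1 group of n = 2 no test between conditions exists, and edgeR's quasi-likelihood test could not be fitted with 1 library a side. Fisher's exact tests compared the libraries gene by gene. They were tested on simulated reads that held counting error alone, which cannot show error rates between 2 animals. The p-values of Fisher's tests measure counting error alone. No molecular identifiers are given. The work used edgeR 4.0.16 and DESeq2 1.42.0 in R 4.3.3, and scipy 1.17.1, pandas 2.3.3, numpy 2.4.6 and matplotlib 3.10.9 in Python 3.11.15.

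The members, lists and tests were chosen with earlier results of these data known. Named were the 15 longest transcripts read in both libraries, the 15 with the highest mean CPM, the 10 with the longest internal stretch, the 4 most read genes of each list, 5 each side of the length limit, and 5 genes at each end of the gene ratios past the test and of the ISM shares. Genes described for their incomplete reads or large exons, and list genes without a complete transcript, were picked after their values were seen. Results for a small number of items the rule took are not reported here. Alternatives changed the length limit, scaling, read minimums, denominators, class definition and assumed dispersion, and left out each replicate.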

Additional observations from a re-analysis of the deposited data

How the results depend on the processing

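No paired analysis was possible because the series has 1 group. With 2 libraries, ratios rest on 1 library a side, and transcripts of 1 or 2 reads cannot be compared. Length limits of 5000, 7000 and 8000 bases gave 1741, 528 and 293 transcripts and a mean share of reads of 2.46%, 0.433% and 0.198%. As means of both libraries, the pooled ISM share was 28.6% at 7000 bases, against 40.5% as reported, and the median per gene was 12.0% at 7000 and 10.9% at 8000, against 16.8%. A minimum of 5 reads left 442 transcripts and reads in both libraries 570. Leaving out 1 replicate gave 679 to 868 transcripts, a share of 0.710% to 1.70%, a pooled ISM share of 32.4% to 48.5% and a median of 13.7% to 19.9%. The share was 1.95% of Known coding multi-exon reads, and the median ISM share 21.4% of ISM and Known reads. The log2 ratio was 1.09 with TMM, 1.04 with DESeq2 size factors, 0.72 on spike-in totals, 1.42 without Atp2a1, 2.76 at 6000 or more internal bases, and 0.95 without Myh1, Myh2, Myh4 and Myh7, an alternative chosen after seeing the data. On spike-in totals the log2 ratio turned to -0.03 for Slc25a12-206, -0.08 for Ppp2ca-201, -0.27 for Zfand5-205, -0.10 for G3bp1-201 and -0.06 for Rab18-205, and without Atp2a1 to 0.15 for Glo1-206. These shifts come from the scaling itself. edgeR's exact test called 200 genes at a dispersion of 0.04 and 33 at 0.1, among them 25 and 1 of the 886 higher and 2 and 1 lower. DESeq2 size factors gave 26 lower, no count minimum 11 and an adjusted p of 0.01 gave 8 (exact tests). Without 1 replicate, 1272 to 2157 genes differed in ISM share from their library, against 1072 in both, and of the 886 genes 80 to 88 were higher and 11 to 29 lower. With 10 or more reads 112 were higher and with 50 or more 37. The ISM share was higher in replicate 1 for 1 gene at 10 reads, 1 at 50 and 1 with classes taken from the chain. Detection in either library was 26.7% as reported, 19.5% at 2 or more reads, 15.6% in both libraries, 12.3% at 6000 or more internal bases and 17.1% at 40 or more exons. Beyond those above, the cause of each change was not tested.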
